A study of Mus musculus with 677 samples.

Results

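Hist1h2ag, Hist1h2ao and Hist1h2ap are replication-linked genes for the core histone H2A, and they are the 3 rows described here of the 23420 genes in the table. They were chosen from earlier results of the same data, in which Hist1h2ap in transit-amplifying (TA) cells had stood out between genotypes, so that difference is given as a description without a test. Levels were TPM, a length-scaled share of each cell's transcripts, in single-cell libraries of mouse intestinal epithelium from C57BL/6 mice. The mice were wild type (WT) or Atg16l2-/- (KO), for which no targeting details were given; Atg16l2 is a relative of a core autophagy gene. Libraries came from 2 runs, with the codes M1 and M2 in each genotype read as animals, and each carried 1 of 9 cell type names given by the submitters. The cells of 1 animal code in 1 run are called a library set below, and the 8 sets held 80 to 87 cells each.

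Replication-linked histone genes lie in clusters, lack introns and are transcribed mainly in S phase, when newly copied DNA needs new nucleosomes. Most of their transcripts end in a stem-loop bound by SLBP instead of a poly(A) tail, so methods primed on poly(A), as SMART-Seq2 is, see them only in part. The crypt of the intestine holds stem cells and fast-dividing TA cells, and the early progenitors and secretory cells they produce can still divide, whereas mature enterocytes have left the cell cycle.

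The 3 genes could hardly be told apart by sequence. In GENCODE vM21 (GRCm38, whose match to the build used for the deposited values is not given in the sources used here) all are single-exon genes of chromosome 13. Hist1h2ao lies at chr13:21810465-21810944 on the plus strand. Hist1h2ap lies 22081 bases further on, at chr13:21833026-21833507 on the minus strand. Hist1h2ag lies at chr13:22042460-22042944 on the minus strand. Each holds 393 coding bases, of which Hist1h2ao and Hist1h2ap share all and Hist1h2ag differs from them at 3, and the 130 residues encoded were the same in all 3 genes. The first 120 coding bases are shown because they hold 2 of those 3 differences. Capitals mark the bases of Hist1h2ag that differ from Hist1h2ao.
Hist1h2ao: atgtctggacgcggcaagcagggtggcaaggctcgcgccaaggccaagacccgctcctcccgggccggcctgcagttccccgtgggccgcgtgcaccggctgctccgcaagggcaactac
Hist1h2ap: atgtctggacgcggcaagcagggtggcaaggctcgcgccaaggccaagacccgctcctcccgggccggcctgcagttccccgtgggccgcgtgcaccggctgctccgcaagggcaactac
Hist1h2ag: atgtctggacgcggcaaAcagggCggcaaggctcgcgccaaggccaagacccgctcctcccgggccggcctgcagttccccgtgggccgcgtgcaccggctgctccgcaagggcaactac

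The annotated transcripts of Hist1h2ao and Hist1h2ap, 480 and 482 bases long, were identical over a run of 452 bases. They differed only in that Hist1h2ao went on for 28 bases after this run and Hist1h2ap began 30 bases before it. Of all 50-base windows of a transcript, 93.5% for Hist1h2ao, 93.1% for Hist1h2ap and 78.9% for Hist1h2ag occurred in the transcript of another gene. Genes outside the 3 held 72.9%, 72.5% and 75.7% of the same windows. The closest of them were the H2A copies Hist1h2ad for Hist1h2ao and Hist1h2ap, and Hist1h2ac for Hist1h2ag. How a read was divided between these copies in the deposited values is therefore uncertain for every single gene, and the sum of the 3 is given beside each one. The sum is still open to the division of reads with the copies outside the 3.

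The RefSeq promoter windows (GRCm38.p6, from 250 bases before to 50 after the start) of all 3 genes were matched. Those of Hist1h2ao and Hist1h2ap shared an identical run of 200 bases, against at most 22 between Hist1h2ao and Hist1h2ag. The 2 windows were not placed alike, since that of Hist1h2ap reached into its coding bases and that of Hist1h2ao ended before them. The shared run was cut off by the window edges, so its full length is not known from them. A stretch of 150 bases from that run is printed to show the repeated unit, beside 150 bases upstream of Hist1h2ag. Capitals mark CCAAT on either strand (ATTGG on the printed one).
Hist1h2ao, chr13:21810217-21810366, plus strand: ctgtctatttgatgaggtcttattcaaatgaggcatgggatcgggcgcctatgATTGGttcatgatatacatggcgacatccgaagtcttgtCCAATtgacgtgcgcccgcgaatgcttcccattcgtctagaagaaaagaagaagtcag
Hist1h2ap, chr13:21833576-21833725, minus strand: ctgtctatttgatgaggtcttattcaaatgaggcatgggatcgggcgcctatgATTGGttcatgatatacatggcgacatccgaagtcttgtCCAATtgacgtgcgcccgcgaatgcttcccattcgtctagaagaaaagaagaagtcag
Hist1h2ag, chr13:22042950-22043099, minus strand: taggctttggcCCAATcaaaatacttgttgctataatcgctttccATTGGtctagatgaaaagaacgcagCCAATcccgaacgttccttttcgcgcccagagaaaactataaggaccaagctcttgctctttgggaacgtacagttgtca
Over the whole windows CCAAT occurred 3 times in Hist1h2ao, 3 times in Hist1h2ap and 5 times in Hist1h2ag. Of all 32851 windows of this length, 37.4% held it at least once and 3.37% at least 3 times. Among the 18 matched replication-linked H2A windows the counts were 18 and 12. TATAA on either strand was present in all 3, and in 24.9% of all windows. The repeated stretch was thus upstream as well as within the transcript, and these letter matches describe the windows only.

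Across the series the targeted gene and the cell type markers mostly went with the labels. Atg16l2 was above 0 TPM in 6 to 12 cells of each WT set and in 0 cells of each KO set. Of the 5 markers listed for each of 7 cell types, all were highest in their own type for Enterocyte, Paneth, Enteroendocrine and Tuft, and 4 of 5 for Stem, TA and Goblet, where Lgr5, Mki67 and Clca1 peaked elsewhere. Summed T cell, B cell, myeloid and stromal markers averaged at most 9.51 TPM in any set. Run 1 cells had a median of 6477 genes above 0 TPM and run 2 cells 5730.5. TPM keep no depth, so the depth behind a 0 is unknown.

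Hist1h2ao accounted for nearly all of the signal. Over all cells it averaged 720.6 TPM, against 60.2 TPM for Hist1h2ap and 9.07 TPM for Hist1h2ag, which is 91.2%, 7.62% and 1.15% of their sum. It was above 0 in 53.03% of cells (exact binomial 95% interval 49.2% to 56.8%, counting error only). Hist1h2ap was above 0 in 24.2% of cells and Hist1h2ag in 14.5%. At least 1 of the 3 was above 0 in 424 cells (62.6%).

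The members were not evenly detected together. Hist1h2ap was above 0 in 32.03% of the cells with Hist1h2ao and in 15.4% of those without it, and Hist1h2ag in 22.3% and 5.66%. Only 28 cells held all 3. Of the 150 cells with a sum of at least 1000 TPM, 94 had Hist1h2ap listed at 0, and Hist1h2ap exceeded Hist1h2ao in 1 of them. In the deposited table most of the summed level thus stood under Hist1h2ao, and whether this is its own level or the division of shared reads was not tested.

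By cell type, Hist1h2ao and the sum of the 3 genes were highest in early enterocyte progenitors, TA cells and goblet cells. The order of the 6 commonest types is read on means over the 4 animal codes (± SD, n = 4). Hist1h2ao stood at 1372 ± 741 TPM in early enterocyte progenitors, 1322 ± 593 TPM in TA cells and 752 ± 467 TPM in goblet cells. It then dropped to 27.9 ± 19.9 TPM in Stem cells, 17.4 ± 22.8 TPM in late enterocyte progenitors and 8.94 ± 4.82 TPM in enterocytes. The top 3 types overlapped one another over the animals, as did the lowest 3. The lowest goblet animal (361.2 TPM) was above the highest Stem animal (52.9 TPM), the one gap in the order. The names rest on the cells' own expression, so this order is a description.

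Hist1h2ap followed the same order at a lower level. It stood at 119.3 ± 93.8 TPM in early progenitors, 90.9 ± 53.8 TPM in TA cells and 77.7 ± 54.95 TPM in goblet cells (n = 4 animal codes). Stem cells held 11.98 ± 8.97 TPM and enterocytes 1.57 ± 1.32 TPM. Every neighbouring pair of types overlapped. Hist1h2ag ran from 14.3 ± 7.06 TPM in TA cells down to 2.12 ± 1.84 TPM in late progenitors, again with overlap at each step.

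The 3 rare types gave few cells, and their levels lay between those of goblet and Stem cells for Hist1h2ao. Hist1h2ao averaged 144.5 TPM over 32 enteroendocrine cells, 54.3 TPM over 22 Paneth cells and 66.7 TPM over 7 tuft cells. Among the enteroendocrine cells its median was 0 TPM and the highest cell held 1739 TPM. As means over the 4 animal codes, Paneth cells held 16.1 ± 30.7 TPM of Hist1h2ag and 45.8 ± 55.4 TPM of Hist1h2ap, where 1 code gave as few as 3 cells. For Hist1h2ag this mean was above that of TA cells, with a spread larger than the mean. Hist1h2ag was listed at 0 in 7 of 7 tuft cells, and a count of 0 among so few allows a share of up to 42.9%.

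**Figure D1:**
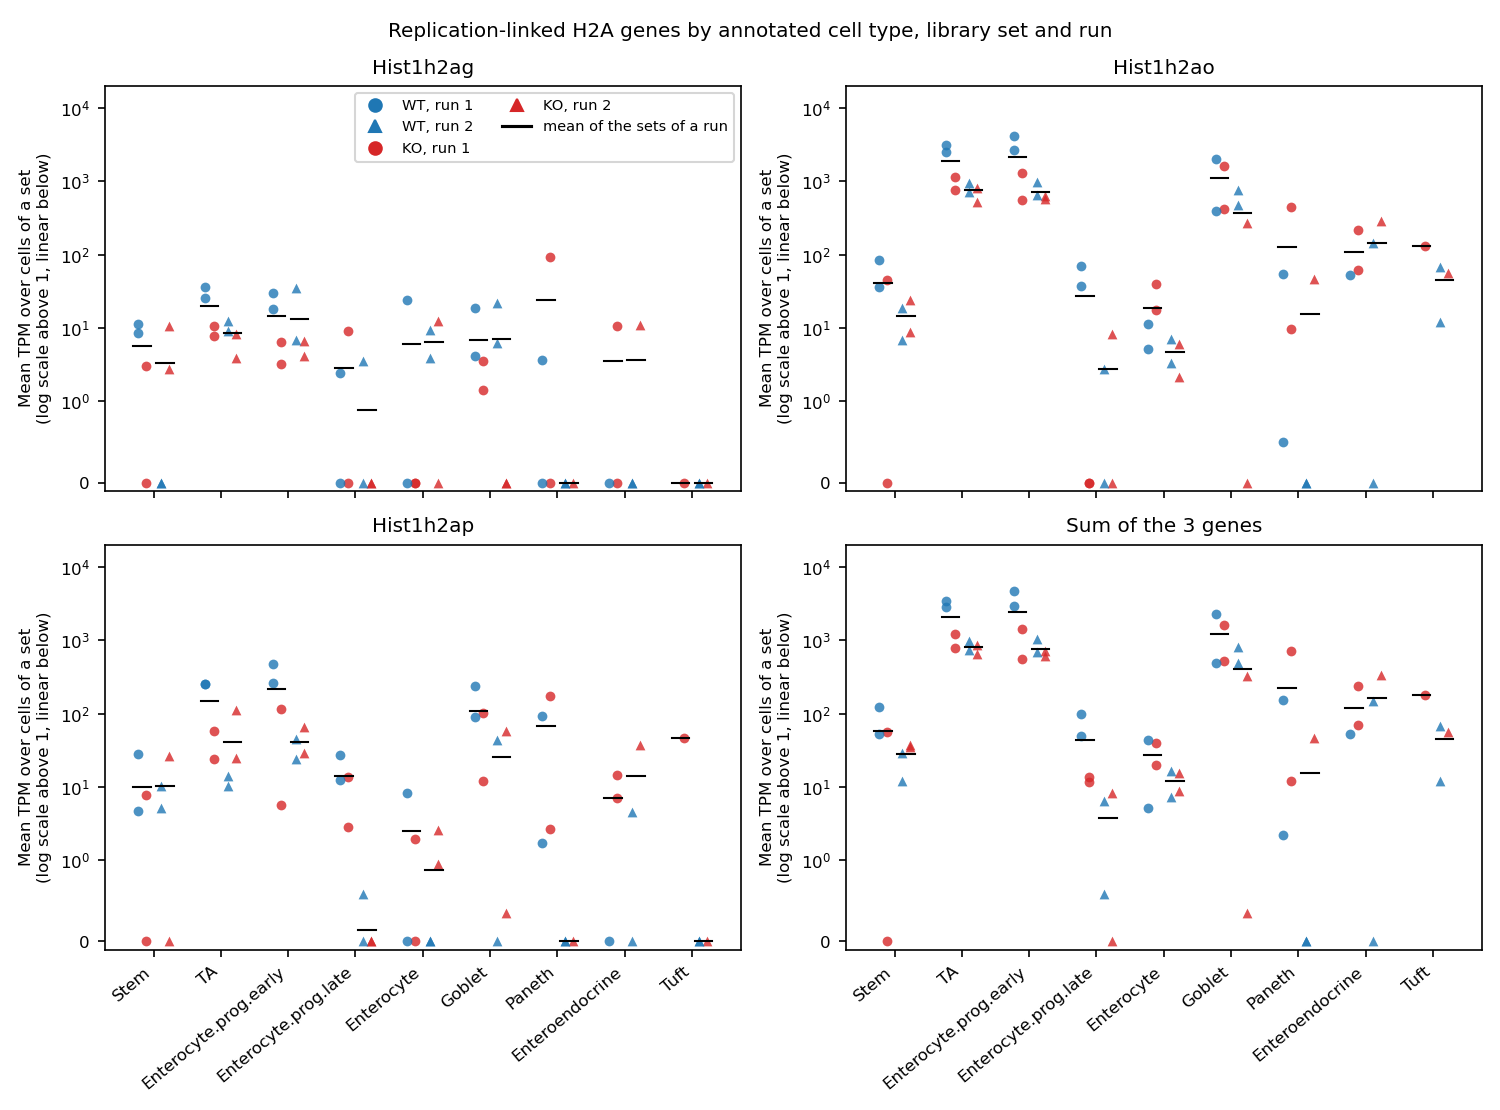
Mean TPM over the cells of each library set (points; blue WT, red KO; circles run 1, triangles run 2) in the 9 annotated cell types, for each gene and for their sum, on an axis that is logarithmic above 1 TPM and linear below. Black bars are the means of the sets of a run. For Hist1h2ao and the sum, TA cells, early enterocyte progenitors and goblet cells lie highest.

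Single cells of a type ranged widely. The median sum was 757 TPM in TA cells and 270.95 TPM in early progenitors, against means of 1419 and 1455 TPM. A sum of at least 1000 TPM was found in 77 TA cells (44% of them), 56 early progenitors (39.4%) and 15 of 70 goblet cells (21.4%). The remaining such cells were 2 of 32 enteroendocrine cells (6.25%). It was found in 0 of 96 Stem cells, 0 of 75 late progenitors and 0 of 58 enterocytes. Those 150 cells carried 90.5% of all summed TPM of the 3 genes. The highest cell, an early progenitor, held 16587 TPM, or 1.66% of its transcripts.

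Over all sets together, high cells were fewer and lower in run 2. Cells at or above 1000 TPM made up 26.1% of run 1 (89 cells, interval 21.5% to 31.1%) and 18.2% of run 2 (61 cells, interval 14.2% to 22.7%). Their mean was 4179 TPM in run 1 and 1837 TPM in run 2. In WT the mean was 6109.9 TPM in run 1 and 1913 TPM in run 2, and in KO it was 2292 and 1754 TPM, where the share was 26.2% and 17.1%. The high cells of KO M2 went the other way, with the higher mean in run 2. In share it was WT M2 that went the other way, with 20.7% high cells in run 1 and 23.75% in run 2. Cells at or above 5000 TPM, a line drawn after the values were seen, numbered 23 in run 1 and 1 in run 2. Of those in run 1, 16 were in WT M2, 6 in WT M1, 1 in KO M1 and 0 in KO M2.

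Over all types, the genotypes had nearly equal shares of high cells in run 1. These were 44 WT cells (26.04% of the WT cells of that run) and 45 KO cells (26.2%), with intervals of 19.6% to 33.3% and 19.8% to 33.4%. Their levels differed, at a mean of 6109.9 TPM in WT and 2292 TPM in KO. By set, the high cells of run 1 averaged 8351 TPM in WT M2, 4558 TPM in WT M1, 2899 TPM in KO M1 and 1597 TPM in KO M2. In run 2 the 4 sets were closer and crossed genotypes, at 1561 TPM in WT M2, 2428 TPM in WT M1, 1670.1 TPM in KO M1 and 1913 TPM in KO M2. The shares above pool all types, and the sets differ in how many TA cells and early progenitors they hold. Among those 2 types of run 1, the share at or above 1000 TPM was 58.5% in WT M1, 48.4% in WT M2, 46.5% in KO M1 and 40% in KO M2, with a mean of those cells of 4743 TPM, 8145 TPM, 2690.02 TPM and 1549 TPM. Both WT sets thus lay above both KO sets in the level of high cells. In share the order was the same, but WT M2 (15 of 31 cells) and KO M1 (20 of 43 cells) were nearly equal. In run 2 the shares were 31.6% in WT M1, 43.6% in WT M2, 41.3% in KO M1 and 23.5% in KO M2, and the genotypes overlapped.

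**Figure D2:**
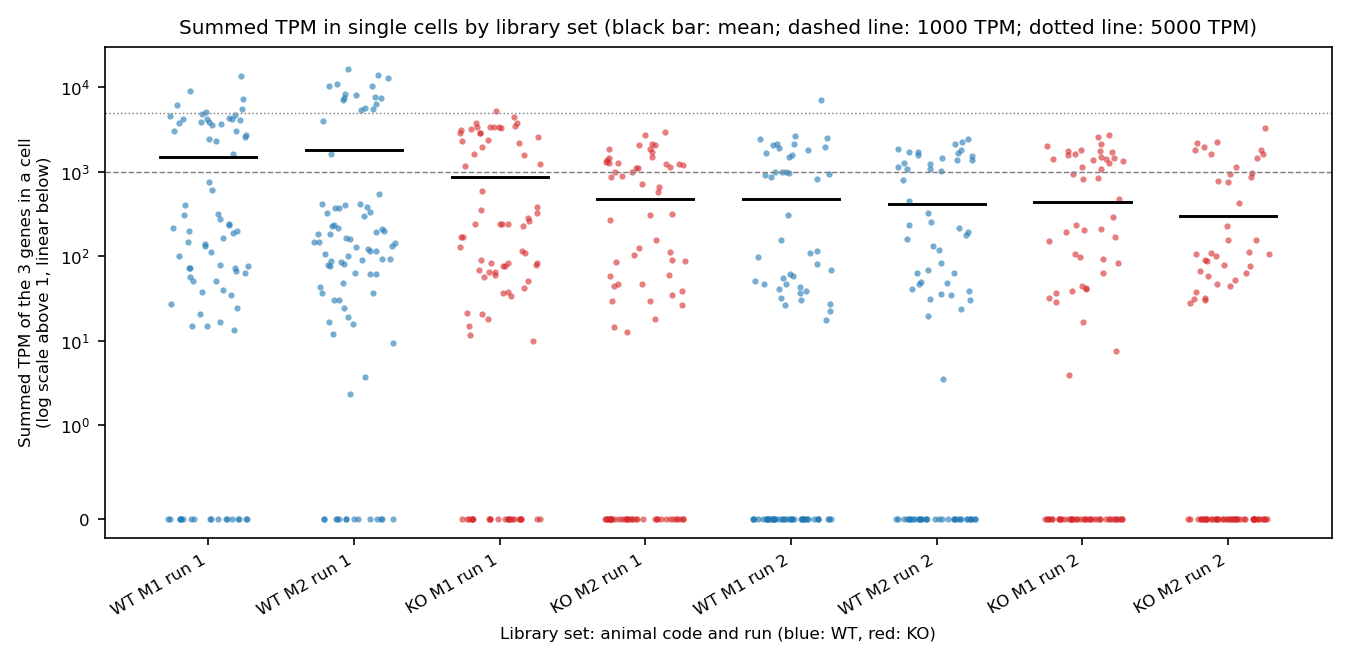
Summed TPM of the 3 genes in every cell (points; blue WT, red KO) by library set, on an axis that is logarithmic above 1 TPM and linear below. Black bars are set means, the dashed line is 1000 TPM and the dotted line 5000 TPM. In WT M2 of run 1, 16 of its 18 cells above the dashed line also lie above the dotted one.

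Set means over all cells showed the same division. Hist1h2ao averaged 1352 TPM in WT M1, 1632 TPM in WT M2, 808 TPM in KO M1 and 439 TPM in KO M2 of run 1. In run 2 it averaged 451 TPM in WT M1, 396 TPM in WT M2, 406 TPM in KO M1 and 263.3 TPM in KO M2. Run 1 was above run 2 for each of the 4 codes, and the genotypes were apart in run 1 and overlapped in run 2. Hist1h2ap averaged 146.7 TPM in WT M1, 174.4 TPM in WT M2, 48.3 TPM in KO M1 and 25.99 TPM in KO M2 of run 1. In run 2 it averaged 9.65 TPM in WT M1, 15.9 TPM in WT M2, 23.3 TPM in KO M1 and 36.1 TPM in KO M2. Both WT sets were thus highest in run 1 and lowest in run 2, while KO M2 was higher in run 2 than in run 1. Hist1h2ag averaged 15.4, 16.6, 4.10 and 9.09 TPM in the same order of run 1 and 12.04, 5.22, 6.63 and 3.40 TPM in run 2. Its 2 WT sets were the highest of run 1, and in run 2 only WT M1 stood above the KO sets.

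The share of cells with each gene was lower in run 2 as well. Hist1h2ao was above 0 in 62.8% of run 1 cells (interval 57.4% to 67.9%) and 43.2% of run 2 cells (37.8% to 48.6%). For Hist1h2ap the shares were 34.3% and 13.99%, and for Hist1h2ag 19.1% and 9.82%. Cells are not replicates, so these intervals describe these libraries only. Fewer detected genes per cell in run 2 moved the same way, and their part in the shares was not tested.

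The effect of run was tested on log2(mean TPM + 1) averaged over 6 types, with the 8 sets as units and genotype in the model (limma, two-sided, Benjamini-Hochberg adjustment over 6777 genes). Hist1h2ao was lower in run 2 by a log2 difference of -1.53 (SE 0.38, adjusted p = 0.288) and in 3 of 4 animal codes. Hist1h2ap gave -1.72 (SE 0.57, adjusted p = 0.288), again in 3 of 4 codes. Hist1h2ag, whose mean fell under the 10 TPM filter and which was taken from the limma fit over all 23420 genes, gave -0.38 (SE 0.32, adjusted p = 0.771). None of the 3 passed at 0.05. One gene did, 0.0148% of those tested: Ndufs5, a subunit of respiratory complex I (-3.30, limma adjusted p = 0.0003), named after its value was seen. The median of all genes tested was -0.19, with 78.5% below 0, so the table as a whole lay lower in run 2 on this scale.

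In the mean of 6 types KO M2 was the exception to the fall for Hist1h2ao and Hist1h2ap, whereas for Hist1h2ag it was KO M1 that rose (0.59). The Hist1h2ao log2 level of KO M2, as the mean of 6 types, was 5.46 in run 1 and 5.93 in run 2, a rise of 0.47, while the other 3 codes fell by up to 2.60. Only 4 Stem cells came from KO M2 in run 1, all listed at 0 for the 3 genes. The Hist1h2ao rise of KO M2 came mainly from Stem cells (3.28) and late progenitors (3.20), low types that both stood at 0 in run 1. In the other types Hist1h2ao of KO M2 changed by -0.51 in TA cells, -0.64 in goblet cells, -2.54 in enterocytes and 0.06 in early progenitors. Without the run 1 cells of KO M2, the run difference was -1.89 for Hist1h2ao (limma adjusted p = 0.00419) and -2.28 for Hist1h2ap (limma adjusted p = 0.00995), and 450 genes in all were called. Without the KO M2 code altogether, the values were -2.19 and -2.75 (limma adjusted p = 0.000266 and 0.00056), with 389 genes called. With mean TPM taken before the log, the call for both genes thus turned on that 1 set. Leaving the set out also raised the share called over all genes from 0.0148% to 6.69%. With log values averaged over cells and every set kept, Hist1h2ao passed (-1.60, limma adjusted p = 0.04) and Hist1h2ap did not (-1.08, limma adjusted p = 0.0827). Among cells with at least 5000 genes above 0 TPM the difference of Hist1h2ao was -1.46 (limma adjusted p = 0.307), about as large as with all cells.

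Genotype was compared over 5 types without TA, with 4 animal codes as units and 2 residual degrees of freedom. Where nothing in the labels says that codes are separate animals, a p measures only the spread between these samples. The Hist1h2ao log2 levels were 6.16 in WT M1, 7.16 in WT M2, 5.54 in KO M1 and 5.41 in KO M2. Both KO codes lay below both WT codes, and the difference was -1.19 (SE 0.27, adjusted p = 0.253 by limma over 6717 genes). The Hist1h2ap levels were 4.08, 4.75, 3.17 and 3.58 in the same order, again without overlap, with a difference of -1.04 (SE 0.29, limma adjusted p = 0.358). The Hist1h2ag levels were 3.18, 2.87, 1.93 and 1.68, with a difference of -1.22 (SE 0.20, adjusted p = 0.70 from the limma fit over 23420 genes). The share of all genes in which the codes separate in this way was not counted, and with 2 codes against 2 it need not be small. The 3 genes also share most of their sequence, so they do not count as 3 separate results. None of the 3 passed, and 2 genes did, 0.0298% of those tested. These were Rps27, a ribosomal protein gene (-3.05, limma adjusted p = 0.0112), and Itln1, a lectin of goblet and Paneth cells (2.17, limma adjusted p = 0.0186), both named after their values were seen. Leaving out 1 of the 4 codes leaves 1 sample in a genotype, so only the size of the difference is given. For Hist1h2ao it was -1.25 without KO M1, -1.12 without KO M2, -1.69 without WT M1 and -0.69 without WT M2.

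The genotype difference was larger in run 1. In run 1 alone the 5-type difference was -1.84 for Hist1h2ao, -1.999 for Hist1h2ap and -1.54 for Hist1h2ag, and every KO set lay below every WT set for each gene. How many of all genes separated in this way was not counted, and with 2 sets of each genotype such separation need not be rare. In run 2 alone it was -0.99, 0.24 and -0.90, and the sets of the genotypes overlapped for each gene. The difference between runs was itself tested as an interaction. It was 0.85 for Hist1h2ao (SE 0.92, adjusted p = 0.895), 2.24 for Hist1h2ap (SE 0.95, adjusted p = 0.763) and 0.64 for Hist1h2ag (SE 0.68, adjusted p = 0.896), all by limma. No gene passed in that comparison (0 of 6717, 0%, with 385 at an unadjusted p under 0.05), so a difference between runs in the genotype effect was not shown. Leaving out a KO code leaves 1 KO set per run, so only the size is given. Without KO M1 the interaction was 2.70 for Hist1h2ao and 4.01 for Hist1h2ap, and without KO M2 the Hist1h2ao value was -0.998.

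In TA cells, where Hist1h2ap had been noticed, the values were 256.1 TPM in WT M1, 253.3 TPM in WT M2, 58.3 TPM in KO M1 and 24.04 TPM in KO M2 of run 1. In run 2 they were 10.1 TPM in WT M1, 13.8 TPM in WT M2, 24.6 TPM in KO M1 and 112.95 TPM in KO M2. In run 2 the gene was above 0 in only 17 of 81 TA cells, and the highest of them, a KO cell, held 831.6 TPM. The order of the genotypes in these set means was thus opposite in the 2 runs, with every KO set lower in run 1 and every KO set higher in run 2. Hist1h2ao in the same TA cells did not cross over in this way. It stood at 2538 TPM in WT M1, 3172 TPM in WT M2, 1139.9 TPM in KO M1 and 749.8 TPM in KO M2 of run 1. In run 2 it stood at 939.9 TPM in WT M1, 713 TPM in WT M2, 820.4 TPM in KO M1 and 526 TPM in KO M2. The genotypes were apart in run 1 and overlapped in run 2. Since the 2 transcripts are identical over 452 bases, whether the crossing of Hist1h2ap reflects its own level or the division of reads between the copies was not tested.

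The summed level in TA cells followed Hist1h2ao. It was 2819 TPM in WT M1, 3462 TPM in WT M2, 1206 TPM in KO M1 and 785 TPM in KO M2 of run 1, against 962 TPM, 736 TPM, 853 TPM and 642 TPM in run 2. The log2 difference of KO from WT was -1.68 in run 1 and -0.18 in run 2. In early progenitors the summed difference was -2.04 in run 1 and -0.37 in run 2, with no overlap in run 1 and overlap in run 2. In goblet cells it was -0.21 in run 1 with overlap, and -4.91 in run 2, where the 11 goblet cells of KO M1 had Hist1h2ao listed at 0 and WT M1 gave only 3 cells. Enterocytes, where the level was low, went the other way for Hist1h2ao in run 1, with both KO sets above both WT sets.

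**Figure D3:**
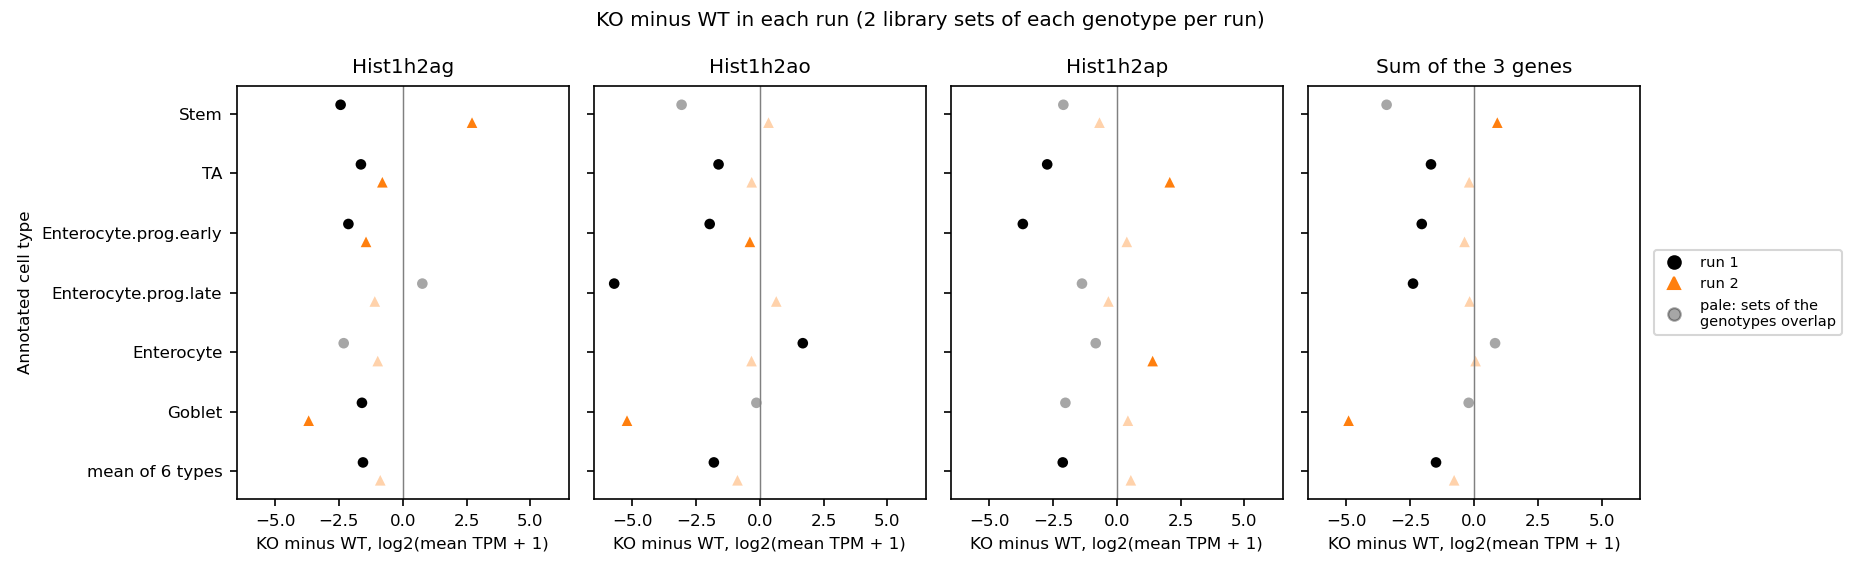
Difference between KO and WT in log2(mean TPM + 1) for 6 cell types and their mean, in run 1 (circles) and run 2 (triangles), for each gene and for the sum. Full colour marks types in which the 2 KO sets do not overlap the 2 WT sets of that run. For Hist1h2ap in TA cells the runs lie on opposite sides of 0, at -2.73 and 2.07.

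Mcm2 and Pcna did not pass between runs or genotypes. Mcm2, a subunit of the replicative helicase, and Pcna, the sliding clamp of DNA polymerases, are induced before and during S phase. Mcm2 in TA cells stood at 111.1 TPM in WT M1, 165.003 TPM in WT M2, 159.1 TPM in KO M1 and 118.7 TPM in KO M2 of run 1. In run 2 it stood at 135.8 TPM in WT M1, 124.3 TPM in WT M2, 146.05 TPM in KO M1 and 127.2 TPM in KO M2. The genotypes overlapped in both runs. The run difference over 6 types was -0.01 for Mcm2 (SE 0.24, limma adjusted p = 0.991) and -0.05 for Pcna (SE 0.17, limma adjusted p = 0.923). The genotype difference over 5 types was 0.15 for Mcm2 (SE 0.26, limma adjusted p = 0.936) and 0.04 for Pcna (SE 0.15, limma adjusted p = 0.972). Within single types larger differences between KO and WT were seen without overlap of the genotypes, untested. Over both runs Mcm2 was lower in KO late progenitors (-1.61), and Pcna was higher in KO Stem cells (0.40) and lower in KO TA cells (-0.26). For Pcna in TA cells the genotypes overlapped within each run. In run 1 Mcm2 was higher in KO goblet cells (1.80) and enterocytes (2.39). Pcna of run 1 was higher in KO early progenitors (0.70) and lower in KO enterocytes (-0.63). A difference of the histone genes from Mcm2 was not tested.

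Across cells the summed histone level was weakly correlated with Mcm2 and Pcna. Spearman's rho over all cells was 0.28 with Mcm2 and 0.27 with Pcna, and Pearson's r of log2(TPM + 1) was 0.32 and 0.25. Mcm2 and Pcna correlated with each other at a rho of 0.64. By member, rho with Mcm2 was 0.26 for Hist1h2ao, 0.14 for Hist1h2ap and 0.09 for Hist1h2ag. The rho of the sum with Mcm2 was positive in 8 of 8 library sets (0.19 to 0.47), and it was 0.25 in run 1 and 0.32 in run 2. Among the 424 cells with any of the 3 genes above 0, rho was 0.13 with Mcm2 and 0.27 with Pcna. These coefficients describe cells that share libraries, and the sum was also correlated with the number of genes detected per cell (rho 0.56), whose part was not tested.

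Within a cell type the relation to Mcm2 was not one relation. In TA cells rho with Mcm2 was -0.21 for the sum, and it was -0.23 in run 1 and -0.22 in run 2. In early progenitors it was -0.03. In goblet cells it was 0.38 (70 cells) and in enterocytes 0.48 (58 cells), where levels were low. With Pcna the rho was 0.18 in TA cells, 0.05 in early progenitors and 0.33 in goblet cells. It was positive in 4 of the 6 types and ran from -0.20 to 0.33, with a median of 0.05.

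Detection of the markers was set beside high levels within types. All 15 goblet cells at or above 1000 TPM lay among the 35 with both Mcm2 and Pcna above 0, against 0 of 27 with only 1 of the 2 and 0 of 8 with neither. In TA cells 45.3% of those with both markers were at or above 1000 TPM, against 5 of 14 (35.7%) with 1 and 0 of 2 with neither. In early progenitors the shares were 41.7% with both, 31.03% with 1 and 4 of 10 (40%) with neither, and the mean sum was 1359 TPM with both and 4212 TPM with neither. The highest cell of all, at 16587 TPM, had neither marker above 0. In these 2 types high cells were thus found with and without both markers. In Stem cells none of the 73 double-positive cells reached 1000 TPM, and their sum averaged 42.7 TPM. High H2A levels thus lay among double-positive cells in goblet cells, and no Stem cell had them. A difference between types in this relation was not tested.

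The summed level had a higher correlation with the mitosis list than with the replication list; the gap was not tested. The rho of the sum with the mean log2(TPM + 1) of 24 mitosis genes was 0.73 over all cells, against 0.55 with 43 DNA replication genes. It was 0.69 to 0.81 over the 8 sets for the mitosis list and 0.47 to 0.72 for the replication list, and 0.61 and 0.33 within TA cells. TA cells and early progenitors together were ranked by mitosis score and divided into 4 groups of 79 or 80 cells. The sum averaged 83.03 TPM in the lowest group, 1348 TPM in the next, 2339 TPM in the one above it and 1987 TPM in the highest. By replication score the 4 groups averaged 907, 1461, 1779.8 and 1599 TPM. The lowest group had the lowest mean by either score.

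**Figure D4:**
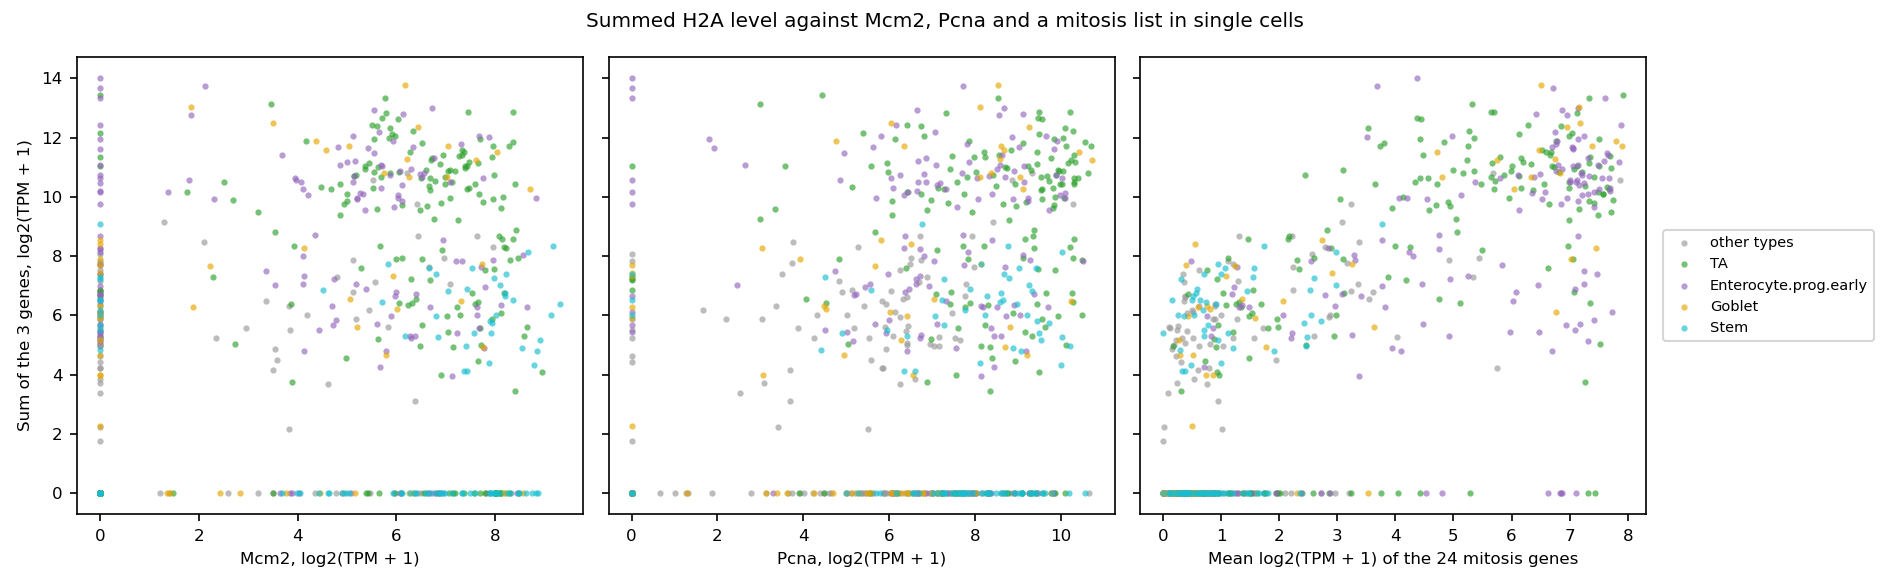
Summed level of the 3 genes against Mcm2, Pcna and the mean of 24 mitosis genes in single cells, all as log2(TPM + 1), with cell types in colour. The cloud is nearly flat against Mcm2 (rho 0.28), and the high cells gather at high mitosis values (rho 0.73).

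Cell cycle kinases, spindle genes and a histone H3 gene were among the genes whose profile over cell types and sets was most like that of the sum. Over 48 profiles (6 types in 8 sets) the 8 highest Pearson coefficients among 6811 genes, leaving out 1 Gm or Rik symbol, belonged to Cdk1 (0.92), the spindle factor Tpx2 (0.91), the kinase Aurkb (0.91), the kinetochore gene Nuf2 (0.91), the DNA glycosylase Neil3 (0.90), the condensin subunit Ncapg (0.90), the histone H3 gene Hist2h3c2 (0.89) and Gtse1 (0.89). Within run 1 the first 4 were Hist1h1e (0.92), Cdk1 (0.92), Tpx2 (0.91) and Shcbp1 (0.90). Within run 2 they were Prc1 (0.95), Smc2 (0.95), Neil3 (0.95) and Aurkb (0.95). Mcm2 ranked 380 (r = 0.60) and Pcna 418 (r = 0.59) over the 48 profiles. The median was 0.82 for 23 mitosis genes, 0.60 for 38 replication genes, 0.75 for 7 other histone genes of classes H1, H2B, H3 and H4, and 0.19 over all genes. Profiles share sets and types, so these values describe likeness only.

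Other histone genes gave a background for the 3. Together the 15 other replication-linked H2A copies averaged 75.7 TPM, about as much as Hist1h2ap and Hist1h2ag combined. The highest were Hist1h2ab (14.4 TPM), Hist2h2aa1 (12.8 TPM), Hist3h2a (11.5 TPM) and Hist1h2ae (10.0 TPM). Hist2h2aa1 went against the order of types, with 37.9 TPM in enterocytes and 6.04 TPM in TA cells. Of the 49 genes for H1, H2B, H3 and H4, Hist1h2bc was highest (259.9 TPM) and was also higher in enterocytes (477 TPM) than in TA cells (138.6 TPM), whereas Hist2h3b (41.5 TPM), Hist1h4d (25.5 TPM) and Hist1h4i (20.2 TPM) were higher in TA cells.

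The H2A variants are encoded by genes outside the replication-linked clusters, and H2afx can also give stem-loop transcripts in S phase. H2afz, the gene of H2A.Z, averaged 1192 TPM and was above 0 in 99.7% of cells, followed by H2afv (220.4 TPM), the DNA damage variant H2afx (113.03 TPM, above 0 in 69.9% of cells) and H2afj (74.9 TPM). H2afz stood at 1631 TPM in TA cells, 716 TPM in Stem cells and 253.02 TPM in enterocytes, a narrower range than that of Hist1h2ao. Its genotype difference was -0.31 (SE 0.18, limma adjusted p = 0.748) and its run difference -0.27 (SE 0.22, limma adjusted p = 0.593).

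No gene of these lists passed in any of the 3 limma comparisons. For KO against WT the median difference was -0.27 for 5 variants (0 above 0), -0.39 for 3 other H2A copies, -0.27 for 8 other histone genes (3 above 0), 0.37 for 6 genes of histone mRNA 3' processing (6 above 0), 0.15 for 37 replication genes (24 above 0) and 0.24 for 21 mitosis genes (15 above 0), beside 0.01 over all genes tested. Slbp, which binds the stem-loop of histone transcripts, was the highest of the processing genes at 117.8 TPM, with a difference of 0.61 (SE 0.19, limma adjusted p = 0.385), and Cpsf3, the endonuclease that cuts them, gave 0.09 (SE 0.17, limma adjusted p = 0.946). Cstf2 (0.40) and Lsm10 (0.34) also did not pass.

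For run 2 against run 1 the list medians were -0.40 for the variants (0 of 5 above 0), -0.05 for the other H2A copies, -0.35 for the other histone genes, -0.24 for the processing genes, -0.32 for replication (4 of 38 above 0) and -0.50 for mitosis (0 of 23 above 0), beside -0.19 over all genes. For the interaction they were 0.16, 0.45, 0.04, -0.29, -0.44 and -0.83, beside -0.10 over all genes. The mitosis genes Ube2c (401 TPM), Ccnb2 (162.5 TPM), Birc5 (150.1 TPM) and Cdc20 (137.6 TPM) had run differences of -0.52, -0.77, -0.48 and -0.90, and Mcm6, Mcm7 and Pold2 of the replication list -0.46, 0.01 and -0.45. All were smaller in size than the -1.53 of Hist1h2ao and the -1.72 of Hist1h2ap, and that gap was not tested.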

How the data were processed

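Single cells of mouse intestinal epithelium were profiled by SMART-Seq2, per the labels' protocols, which also name a 10X Genomics kit. The authors deposited TPM values, estimated with RSEM after alignment with Bowtie and TopHat per the submitters' processing notes; versions and build are not given in the sources used here. All columns matched a library (0 left over), and each sums to the same total, so depth is lost. TPM divide reads among near-identical copies, so single members are uncertain.

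Run, animal code and cell type came from the titles. The sets occupy separate blocks of 96 library numbers, so set and animal cannot be told apart within a run, and whether a code means the same animal in both runs is not stated. No cell was removed and no doublet caller was run. Mean TPM over cells of a type was taken as log2(mean TPM + 1) and averaged over types with cells in every set and at least 10 in every animal. Genes with a mean of at least 10 TPM and above 0 TPM in at least 10% of cells were tested with limma 3.58.1 in R 4.3.3 (eBayes with trend), with Benjamini-Hochberg adjustment at 0.05. The fit was also run on cells redrawn within each type from all sets pooled, with known changes added. That simulation held no spread between animals or sets beyond the draw of cells, so it does not give the error rate in these data. Genotype used 4 codes, run and interaction 8 sets. A member under the filter was taken from the fit without it. Shares have exact (Clopper-Pearson) 95% intervals; a count of 0 allows 3 cells. Named genes were the members, Mcm2, Pcna, the 4 highest of each list by mean TPM, and those most correlated with the sum (8 over all profiles, 4 per run). The members, lists and tests were chosen with earlier results of these data known. Alternatives were other pseudocounts, filters, averaging, normalization, cell filters, left-out codes, blocks and single runs. Sequences are from GENCODE vM21 and RefSeq tables.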

Additional observations from a re-analysis of the deposited data

Results flagged for a closer look

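Among the log2 levels averaged over 6 types, 8 groups of 4 library sets were checked for a set far from the rest, of which chance flags about 1 in 20. KO M1 of run 2 stood below the other 3 sets of its run for Hist1h2ao (4.22, with a gap of 0.88 of the range of the 4 sets) and for the sum of the 3 genes (4.81, gap 0.84). In that set Hist1h2ao was listed at 0 in the 11 goblet cells.

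The direction of KO against WT in the 2 runs was compared in 28 cases, the 3 genes and their sum in 6 types and in the mean of those types. In 2 of these, both KO sets lay below both WT sets in one run and above them in the other, which was not tested. For Hist1h2ap in TA cells the KO difference was -2.73 in run 1 and 2.07 in run 2, with the gene above 0 in 17 of 81 TA cells of run 2. That case was already known when the genes were chosen, so its flag is no new result. For Hist1h2ag in Stem cells it was -2.43 in run 1 and 2.71 in run 2, from 6 Stem cells of 96 with the gene above 0.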

How the results depend on the processing

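Shares are of the genes tested. KO minus WT called 0.0298% (2 genes). It called 0 genes (0%) without the filter on low values, at a mean of at least 50 TPM, with log values averaged over cells, with eBayes without trend, without the highest cell of each profile or without the run 1 cells of KO M2. The share was 0.0149% with a pseudocount of 0.1 or over 8 sets, 0.0147% in run 1 alone, 0.0594% with cells of at least 5000 genes, 0.244% in run 2 alone, and 0.0298% to 3.19% with 1 code left out, where a lone sample is assumed to vary like the others. The M numbers share only a number (the M1 minus M2 differences of WT and KO correlated at -0.10 over genes). As a replicate block they gave 0.893% (60 genes), with Hist1h2ao at limma adjusted p = 6.24e-05 and Hist1h2ap at 0.0387. The crossed replicate block, added after seeing the data, called 4.02%.

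Hist1h2ao kept its sign under the 19 alternatives (-1.84 to -0.69) and passed with the replicate block and the crossed one. Whether it passed with a code left out is not read, since 1 sample is then left in a genotype. Hist1h2ap turned to 0.24 in run 2 alone. Hist1h2ag kept its sign and passed in 0 of 19.

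Run 2 minus run 1 called 0.0148%, 0% without the filter or the highest cell, 0.0294% with cells of at least 5000 genes, 0.295% with log values averaged (Hist1h2ao then at -1.60, limma adjusted p = 0.04), 6.69% without the run 1 cells of KO M2, and 0.0147% to 5.76% with 1 code left out. The members kept their sign in the 15 alternatives.

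The interaction called 0%, 0.132% without the filter, 0.0149% with the replicate block and 0% to 3.36% with 1 code left out. Hist1h2ao ran from -0.998 without KO M2 to 2.70 without KO M1. The unknown depth limits every value of 0.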
